A study of Microtus ochrogaster with 40 samples.

Results

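Collagen genes were examined across the cell classes of the prairie vole nucleus accumbens. The members are the genes whose name, in any case, reads Col, digits, a, digits, and 40 of the 19130 genes in the count tables met that rule. Single-nucleus RNA sequencing had been run on the accumbens of 40 prairie voles (Microtus ochrogaster), 1 animal to a library. All animals had lived for 16 days with a partner, and they fall into 4 groups: 11 females housed with a mate (opposite sex), 8 females with a peer (same sex), 11 males with a mate and 10 males with a peer. No group lived without a partner, and the labels do not say which animals lived together, so the tests treat every animal as independent.

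Collagens are secreted or membrane proteins built from 3 alpha chains wound into a triple helix. Fibrillar collagens form the ropes of connective tissue, type IV collagens form the sheet of basement membranes, FACIT collagens sit on the surface of fibrils, type VI and its relatives form beaded filaments, and transmembrane collagens stay anchored in the cell surface. In brain, most matrix of this kind lies in the basement membrane around vessels and at the surface of the tissue. Some chains are also made by neurons and glia: interneurons of cortex and hippocampus, for example, release collagen XIX, which takes part in forming inhibitory synapses.

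The 40 libraries held 178387 nuclei after filtering, 1767 to 7666 per animal with a median of 4549, and 2918796 to 13163871 UMIs per animal. Nuclei were clustered without the collagens and named from markers that include none, so each class name below means nuclei like that type. Of 11 classes with enough animals, 6 were neuronal: D1, D2 and eccentric medium spiny neurons, GABA interneurons, cholinergic interneurons and glutamate neurons. The others were astrocytes, oligodendrocyte precursors, mature oligodendrocytes, microglia and vascular nuclei, the last joining endothelial, mural and fibroblast-like nuclei. The glutamate class took between 0.392% and 43.3% of the nuclei of a library. Where in the dissected tissue these glutamate nuclei lay was not tested, so they may not all belong to the accumbens. The 10 endothelial markers summed to 11523 UMIs per 1000000 in vascular nuclei and to at most 87.3 in any of the other 10 classes. The 11 mural markers summed to 8176 in vascular nuclei and to at most 831, in D2 neurons, elsewhere. The 13 fibroblast-like markers summed to 2156 in vascular nuclei, but to 16999 in mature oligodendrocytes and 3237 in astrocytes, so their sum does not set the vascular class apart. The library of male mate 2 stood apart: all 6375 barcodes left out for low UMIs were its own, and its nuclei had a median of 653 UMIs against 912 to 2152 in the others. Its makeup was extreme too, with the highest glutamate share, the 43.3% above. It had the lowest shares of astrocytes (0.275%), oligodendrocyte precursors (0.103%), mature oligodendrocytes (0.602%) and microglia (0.0172%). No more than 85 barcodes were shared by 2 libraries, at most 1.53% of the smaller one.

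Levels are UMIs per 1000000 UMIs of a class in 1 animal (CPM), given as the mean over animals ± SD. They are not scaled by transcript length, so levels are compared between classes for 1 gene and not between genes. The precision depends on class size: the median animal had 1775663 UMIs in D1 neurons but 46757 in vascular nuclei, 73464 in microglia and 74070 in cholinergic interneurons. A count of 3 UMIs, the limit that a count of 0 allows, equals 1.69 CPM in the median animal for D1 neurons, 64.2 CPM for vascular nuclei, 40.8 CPM for microglia and 40.5 CPM for cholinergic interneurons. A 0 in the small classes is therefore a statement about depth as much as about the gene, and these floors cover counting error only.

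Of the 40 collagen genes, 34 reached a mean of at least 10 CPM in at least 1 of the 11 classes. These were 10 of 11 fibrillar genes, 7 of 8 FACIT genes, all 6 type IV genes, 6 of 8 beaded genes, 3 of 4 transmembrane genes, 1 of 2 short-chain genes and the multiplexin Col18a1. The other 6, Col6a5, Col8a2, Col6a4, Col22a1, Col2a1 and Col17a1, had between 80 and 1189 UMIs over all nuclei and stayed below 10 CPM in every class. Col24a1 had 33514 UMIs, the most of any, counted without regard to transcript length. The vascular class, with 1389 nuclei, held the highest mean of 13 of the 40 genes. Oligodendrocyte precursors held the highest mean of 6 genes, GABA interneurons, glutamate neurons and astrocytes of 5 each, eccentric neurons of 3, and D1 neurons, cholinergic neurons and mature oligodendrocytes of 1 each. This tally takes in the 6 genes under 10 CPM: the mature oligodendrocyte gene was Col17a1, at 0.823 CPM, and the vascular genes include Col6a4, at 2.30. Other vascular means, such as Col8a1 at 16.1 CPM, lay below the vascular floor of 64.2 CPM in the median animal. The share over all genes was not computed, so the tally is not read as a result about collagens. No collagen gene was highest in D2 neurons or microglia. The heat map of class means shows separate blocks: a vascular block, a block shared by oligodendrocyte precursors and astrocytes, and single genes that stand out in 1 or 2 neuron classes.

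**Figure D1:**
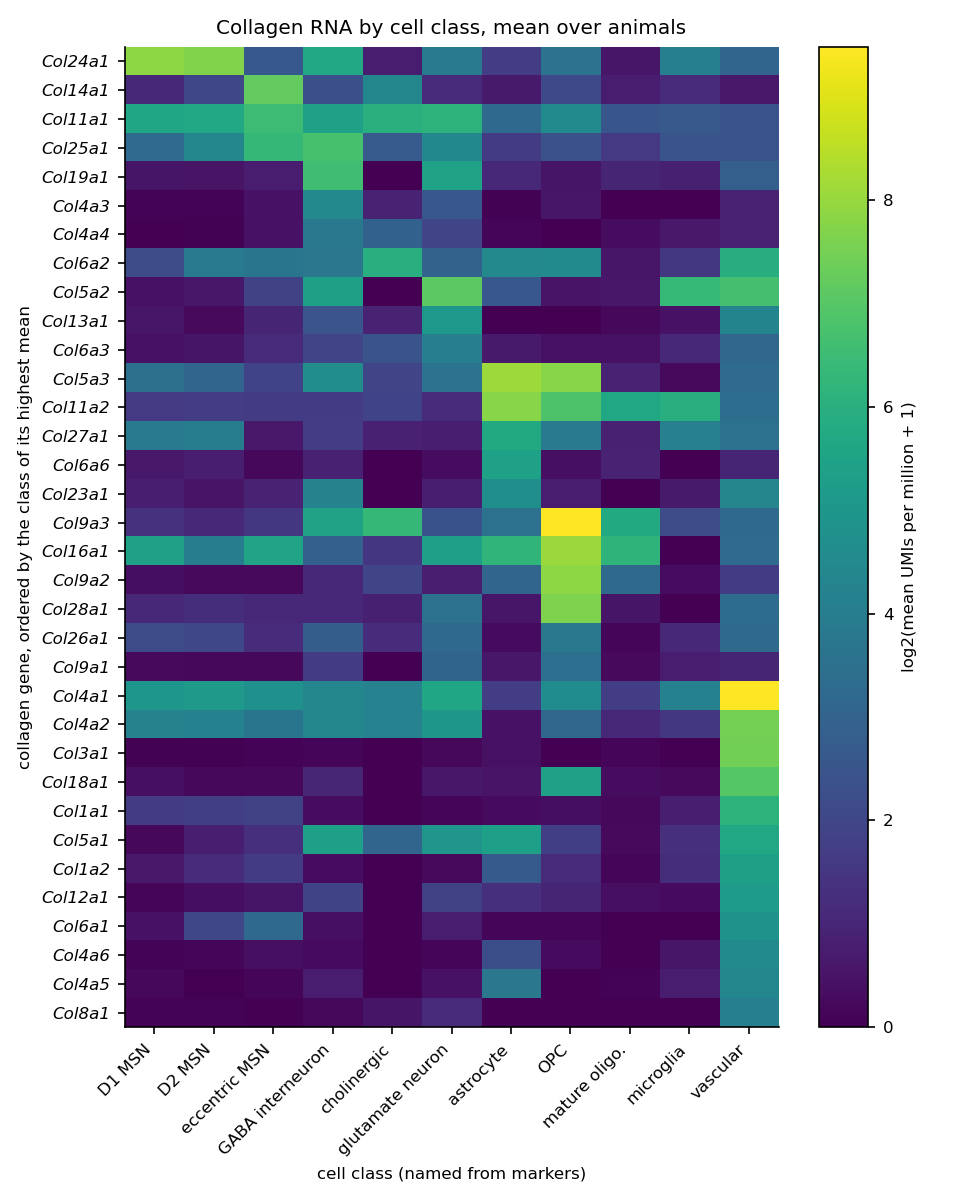
Colour gives log2 of the mean CPM plus 1 for each of the 34 collagen genes that reach 10 CPM (rows, ordered by the class of the highest mean) in the 11 classes (columns; MSN, medium spiny neuron; OPC, oligodendrocyte precursor). Col24a1 is bright in D1 and D2 neurons, Col9a3 in oligodendrocyte precursors and Col4a1 in vascular nuclei.

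Each class was tested against the mean of the other classes with edgeR's quasi-likelihood test on counts summed per animal and class, with the animal as a block. A gene was called at a Benjamini-Hochberg adjusted p under 0.05 over all 11479 genes and a log2 fold of at least 1. Counts were high enough in 22 collagen genes, and 18 were not tested. Collagens called higher numbered 11 in vascular nuclei, where 19.3% of all genes were, 10 in GABA interneurons (11.6% of all genes) and 10 in glutamate neurons (13.1%). Astrocytes had 9 (18.1%) and oligodendrocyte precursors 9 (14.6%). D1 neurons had 4 (11.6%), D2 neurons 4 (11.9%), eccentric neurons 4 (11.5%), cholinergic neurons 4 (9.67%), mature oligodendrocytes 4 (13.7%) and microglia 3 (15.5%). Lower calls outnumbered higher ones in mature oligodendrocytes (10, where 21.1% of all genes were lower), microglia (8, 24.5%), cholinergic neurons (7, 14%), D1 neurons (6, 12.1%) and eccentric neurons (6, 11.2%). Under limma-voom the counts fell to 1 in D1 (9.19% of all genes by that test) and 2 in D2 neurons (9.47%) and rose to 9 in cholinergic neurons (12.7%) and 9 in microglia (18.1%). By that test 14 were lower in D1 neurons (18.5% of all genes), 15 in D2 neurons (18.9%) and 15 in eccentric neurons (17.3%). GABA interneurons had 7 higher (8.86%) and 8 lower (13.6%), and glutamate neurons 8 higher (10.4%) and 10 lower (15.4%). Lower calls fell to 3 in microglia (16.2%) and 3 in cholinergic neurons (7.69%). The balance of higher and lower calls thus depends on the test in these classes. A fitted fold depends on the test's prior count where a class has no UMI of the gene in any animal, and levels are given for those genes.

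Among the fibrillar collagens, Col24a1, a minor fibrillar chain known from bone and cornea, was highest in the main output neurons of the accumbens. In D1 neurons the 40 animals lay between 15.6 and 501 CPM with a median of 237. In D2 neurons they lay between 14.6 and 449 with a median of 187. GABA interneurons followed at 50.7 ± 33.4 CPM (SD, n = 40), and glutamate neurons had 14.5 ± 9.92 (n = 39). The D1 and D2 ranges overlapped almost wholly, and D1 was the higher class in 28 of 40 animals. Against the mean of the other classes Col24a1 was higher by 4.84 on the log2 scale in D1 neurons (SE 0.098, adjusted p = 5.3e-190, edgeR's quasi-likelihood test) and by 4.66 in D2 neurons (SE 0.101). The difference between D1 and D2 was 0.16 (SE 0.0726, adjusted p = 0.111) and was not called.

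Col11a1, a chain best known from cartilage fibrils, was spread over all neuron classes. Eccentric neurons had 52.9 to 177 CPM with a median of 85.4, glutamate neurons 16.7 to 176 with a median of 61.5, and cholinergic neurons 13.5 to 135 with a median of 61.0. D2 and D1 neurons had 49.9 ± 15.6 and 46.6 ± 13.6 CPM (n = 40), and the means of vascular nuclei, mature oligodendrocytes and microglia were 4.44 to 5.23. Neighbours in this order overlapped from animal to animal. Its partner chain Col11a2 had the opposite order, with 219 ± 81.9 CPM in astrocytes (n = 39), 113 ± 44.9 in oligodendrocyte precursors and 62.1 ± 37.2 in microglia (n = 38). Across the 11 classes the log2 means of these 2 genes had a Pearson r of -0.75, which is given as a description, since all points come from the same libraries.

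The 3 chains of collagen V, which starts fibrils of collagen I, had their highest means in different classes but overlapped. Col5a1 shared 3 classes of at least 10 CPM with Col5a2, and 3 with Col5a3. Col5a3 was glial: astrocytes had 127 to 511 CPM with a median of 256, and oligodendrocyte precursors had 24.4 to 469 with a median of 214. Those 2 classes overlapped, and astrocytes were higher in 25 of 39 animals. Col5a2 was highest in glutamate neurons, at 41.0 to 312 CPM with a median of 116, followed by vascular nuclei, at 25.1 to 301 with a median of 80.3. Microglia came next with 81.3 ± 130 CPM (n = 38) and were called higher, although their median was 0. GABA interneurons had 40.7 ± 25.5 CPM, and no UMI of Col5a2 was counted in the cholinergic class of any of 25 animals. Col5a1 had similar means in vascular nuclei (49.9 ± 34.2, n = 31), astrocytes (39.7 ± 25.1) and GABA interneurons (39.6 ± 24.1), whose ranges overlapped. Most of its UMIs lay outside the named classes: an unnamed cluster of 5467 nuclei led by Rxfp2 held 7935 of 13302, at 656 ± 268 CPM (n = 38). At clustering resolution 1 the cluster led by Rxfp2, of 6791 nuclei, scored highest on the glutamate marker list, with 6 of 8 markers up. It stayed unnamed because more of its leading genes were markers of another lineage. Col27a1, another fibrillar chain of cartilage, was highest in astrocytes at 52.6 ± 27.3 CPM and stood at 14.0 to 16.3 in D1 and D2 neurons, oligodendrocyte precursors and microglia.

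The chains of interstitial collagens III and I, the main fibrils of connective tissue, had their highest means in vascular nuclei. Col3a1 lay between 0 and 613 CPM in vascular nuclei with a median of 151 (n = 31), and no other tested class had a mean above 0.343. Col1a1 had 68.3 ± 70.8 and Col1a2 40.6 ± 43.6 CPM there, and neither was tested between classes. Vascular nuclei were above the class with the next mean in 22 of 31 animals for Col1a1 and in 21 of 30 for Col1a2. In 1 of 31 animals the vascular nuclei had no Col3a1 UMI, and in 9 they had no Col1a1 UMI. Means of these genes in the 6 neuron classes were at most 2.62 CPM.

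Of the 8 FACIT genes, 7 had their highest mean in oligodendrocyte precursors or in a neuron class, and Col12a1 had it in vascular nuclei. Col9a3, a chain of the heterotrimer that decorates cartilage fibrils, reached 231 to 1134 CPM in oligodendrocyte precursors with a median of 704 (n = 39). Cholinergic interneurons came next with 0 to 216 and a median of 67.3 (n = 25), and in 24 of 24 animals with both classes the precursors were higher. The log2 fold of Col9a3 was 6.53 in the precursors (SE 0.084) and 2.83 in cholinergic neurons (SE 0.238, adjusted p = 8.4e-28, edgeR's quasi-likelihood test). Its partner Col9a2 had 94.9 to 384 CPM in the precursors with a median of 226, and the next class, mature oligodendrocytes, did not exceed 32.0 in any animal. The third chain, Col9a1, had only 10.1 ± 10.7 CPM in the precursors.

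Differentiating oligodendrocytes, a class of 391 nuclei left out of the tests because only 2 animals had 20 of them, carried the same pair. Over 33 animals with at least 5 such nuclei the means were 805 ± 463 CPM for Col9a3 and 309 ± 160 for Col9a2. In mature oligodendrocytes Col9a3 stood at 53.7 ± 39.4 and Col9a2 at 8.82 ± 7.97 CPM. Col11a1, low in the precursors, had 365 ± 253 CPM in the differentiating nuclei. The differentiating class had 473214 UMIs over all animals, the fewest of any class, so its means rest on few UMIs per animal. No test was run between these stages.

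Col16a1, a FACIT chain found near basement membranes, had 142 to 466 CPM in oligodendrocyte precursors with a median of 268. Astrocytes had 25.6 to 165 and mature oligodendrocytes 0 to 238 with a median of 67.7, and the precursors were above the astrocytes in 39 of 39 animals. Col14a1, which binds mature collagen fibrils, was a neuronal gene here. Eccentric neurons had 26.0 to 297 CPM with a median of 127 (n = 40), and its log2 fold there was 6.20 (SE 0.0967, adjusted p = 1.3e-236, edgeR's quasi-likelihood test). Cholinergic neurons had 19.4 ± 19.8 CPM, and the remaining classes had at most 3.97.

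Col19a1, the chain of collagen XIX, was high in few classes. GABA interneurons had 55.3 to 148 CPM with a median of 94.4, and glutamate neurons 23.5 to 62.9 with a median of 43.2. GABA interneurons were higher in 39 of 39 animals with both classes. Vascular nuclei had 6.36 ± 11.6 CPM with 22 of 31 animals at 0, and the other 8 classes had at most 1.08. Col12a1, a close relative of Col14a1, had 35.8 ± 64.9 CPM in vascular nuclei, where 17 of 31 animals were at 0.

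All 6 type IV genes were measured. Col4a1, Col4a2, Col4a5 and Col4a6 had their highest means in vascular nuclei, and Col4a3 and Col4a4 in GABA interneurons. Col4a1 and Col4a2, the chains of nearly all basement membranes, were highest in vascular nuclei. Col4a1 had 418 to 1139 CPM there with a median of 679, and glutamate neurons, the next class, had 25.3 to 90.3 with a median of 46.2. The ranges did not overlap, and vascular nuclei were higher in 30 of 30 animals with both classes. Col4a2 had a vascular median of 168 CPM (0 to 376) and a glutamate median of 31.1 (6.65 to 57.5). Both genes stayed between 17.1 and 47.1 CPM, as means, in D1, D2 and glutamate neurons.

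Col4a3 and Col4a4, known from the filter membrane of the kidney, were highest in GABA interneurons, at 21.0 ± 14.6 and 12.8 ± 6.80 CPM (n = 40). Glutamate neurons had 5.01 ± 3.83 and 2.91 ± 2.38 CPM of them, and vascular nuclei under 1. Col4a5 and Col4a6 were low: 19.3 ± 20.6 and 22.4 ± 34.9 CPM in vascular nuclei, and 12.7 ± 7.33 and 3.84 ± 3.96 in astrocytes. Each pair sits head to head in mammalian genomes, as background. The log2 class means of the pairs had a Pearson r of 0.92, 0.85 and 0.95 over the 11 classes, again as a description.

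Beaded collagens were split among neurons, glia and vessels. Col6a2, a core chain of collagen VI, had 10.4 to 210 CPM in cholinergic interneurons with a median of 54.0 and 0 to 204 in vascular nuclei with a median of 59.7. These 2 classes overlapped wholly, with the cholinergic value higher in 10 of 19 animals. Col6a1 had 28.0 ± 57.1 CPM in vascular nuclei with 14 of 31 animals at 0, and Col6a3 15.7 ± 12.6 in glutamate neurons. Col6a6 was astrocytic, at 2.79 to 117 CPM with a median of 34.5, and no other class had a mean above 0.958. Col28a1, a relative of type VI known from peripheral nerve, was found in oligodendrocyte precursors at 0 to 662 CPM with a median of 102, and glutamate neurons had 10.8 ± 7.46. Col26a1 had 12.9 ± 12.4 CPM in the precursors.

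Among transmembrane collagens, Col25a1, whose shed part is found in amyloid plaques, was highest in GABA interneurons. They had 50.2 to 146 CPM with a median of 107, and eccentric neurons had 34.9 to 129 with a median of 82.3. The ranges overlapped, with GABA interneurons higher in 32 of 40 animals. Col13a1, a collagen of the neuromuscular junction, had 32.2 ± 18.7 CPM in glutamate neurons and 18.6 ± 35.8 in vascular nuclei. Col23a1 had 25.7 ± 24.7 CPM in astrocytes, 18.9 ± 22.4 in vascular nuclei and 17.7 ± 7.87 in GABA interneurons. Col18a1, the source of endostatin, had 0 to 342 CPM in vascular nuclei with a median of 119 and 42.4 ± 25.8 in oligodendrocyte precursors. The short-chain Col8a1 had 16.1 ± 16.7 CPM in vascular nuclei.

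Between D1 and D2 neurons, 1 collagen was called higher in D1 (0.784% of all genes were) and 3 were called higher in D2 (0.993%). Col16a1 was higher in D1 neurons by 1.51 on the log2 scale (SE 0.111). Col6a2, Col14a1 and Col25a1 were higher in D2 neurons, with D1 minus D2 values of -1.84 (SE 0.148), -1.33 (SE 0.254) and -1.04 (SE 0.092). These differences need not hold in every D2 cluster. Among the neuron clusters described below, the D2 cluster led by Cpne7 was called higher for Col6a2 (log2 fold 3.61) and Col14a1. The D2 cluster led by Nts was called lower for Col14a1 and Col25a1, and that led by Npffr2 and Gpr52 for Col14a1. Except for Col6a2, these cluster calls were lost under at least 1 alternative. No D2 cluster was tested against D1 neurons. With doublets kept, only Col6a2 was still called higher in D2; Col14a1 then differed by -0.44 (adjusted p = 0.18, edgeR's quasi-likelihood test) and Col25a1 by -0.94.

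Neuronal and vascular collagens were set against each other in 2 ways, and the choice mattered. The contrast of the mean of the 6 neuron classes, weighted equally, with vascular nuclei called 3 collagens higher in neurons (24.7% of all genes were) and 12 lower (22.3%), with a median log2 difference of -1.67 against 0.144 over all genes. That mean gives the small cholinergic class the same weight as D1 neurons. In a comparison added after the data had been seen, the counts of all named neurons of an animal were summed and set against its vascular nuclei in 31 animals. It tested 16 collagens and called 6 higher in neurons (32% of all genes) and 7 higher in vascular nuclei (16.3%), with a median of -0.55 against 0.39 over all genes.

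The 6 genes higher in summed neurons were Col24a1, Col14a1, Col11a1, Col25a1, Col16a1 and Col19a1. Col24a1 had 12.3 to 335 CPM in neurons with a median of 83.7 and 0 to 59.4 in vascular nuclei with a median of 0. Neurons were higher in 31 of 31 animals, by 4.89 on the log2 scale (SE 0.281, adjusted p = 1.6e-41, edgeR's quasi-likelihood test). Col11a1 had 35.5 to 111 CPM in neurons and was at 0 in the vascular nuclei of 27 of 31 animals, a difference of 3.94 (SE 0.348). Col14a1, Col25a1 and Col16a1 differed by 4.05 (SE 0.597), 2.60 (SE 0.350) and 2.06 (SE 0.331). Vascular zeros lie below a floor of 22.4 to 179 CPM for a count of 3.

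The calls of Col11a1, Col14a1 and Col25a1 were shared with the contrast of class means. That call of Col25a1 was lost by limma-voom, at a log2 difference of 0.92. That of Col14a1 was lost with doublets kept (1.38, adjusted p = 0.1, edgeR's quasi-likelihood test) and without the cholinergic class (1.97, adjusted p = 0.0793). In the contrast of class means Col24a1 missed the threshold (2.29, SE 1.14, adjusted p = 0.058, edgeR's quasi-likelihood test) and Col16a1 had 0.98 (adjusted p = 0.186). Col19a1 had no UMI in the cholinergic class, so its fitted class-mean difference (-1.40, SE 0.494) depends on the prior count. Without that class it was -0.65 (adjusted p = 0.114, edgeR's quasi-likelihood test), and in summed neurons it was 1.82 (SE 0.351). Col5a2, also without a UMI there, was at -5.00 with that class and -4.20 without it. Col14a1 was -0.98 by limma-voom and 2.31 in the edgeR contrast of class means.

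The 7 genes higher in vascular nuclei than in summed neurons were also lower in the contrast of class means. They were Col3a1, Col18a1, Col4a1, Col4a2, Col6a2, Col5a1 and Col5a2. For Col5a1 this holds for named neurons only, since the unnamed Rxfp2 cluster with glutamate markers described above, at 656 ± 268 CPM, entered neither side. Col4a1 had 19.6 to 62.0 CPM in summed neurons and 418 to 1139 in vascular nuclei, with no overlap and a log2 difference of -4.24 (SE 0.0934, adjusted p = 8.2e-106, edgeR's quasi-likelihood test). Col4a2 differed by -3.08 (SE 0.135) and Col6a2 by -2.74 (SE 0.216). Col3a1 had a median of 0 CPM in neurons and 151 in vascular nuclei, which were higher in 30 of 31 animals. Col5a1 and Col5a2 differed less, by -2.01 (SE 0.221) and -1.35 (SE 0.158), and overlapped. Col13a1 (-0.51, adjusted p = 0.158), Col27a1 (-0.59, adjusted p = 0.14) and Col5a3 (0.44, adjusted p = 0.31) were not called with edgeR's quasi-likelihood test.

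**Figure D2:**
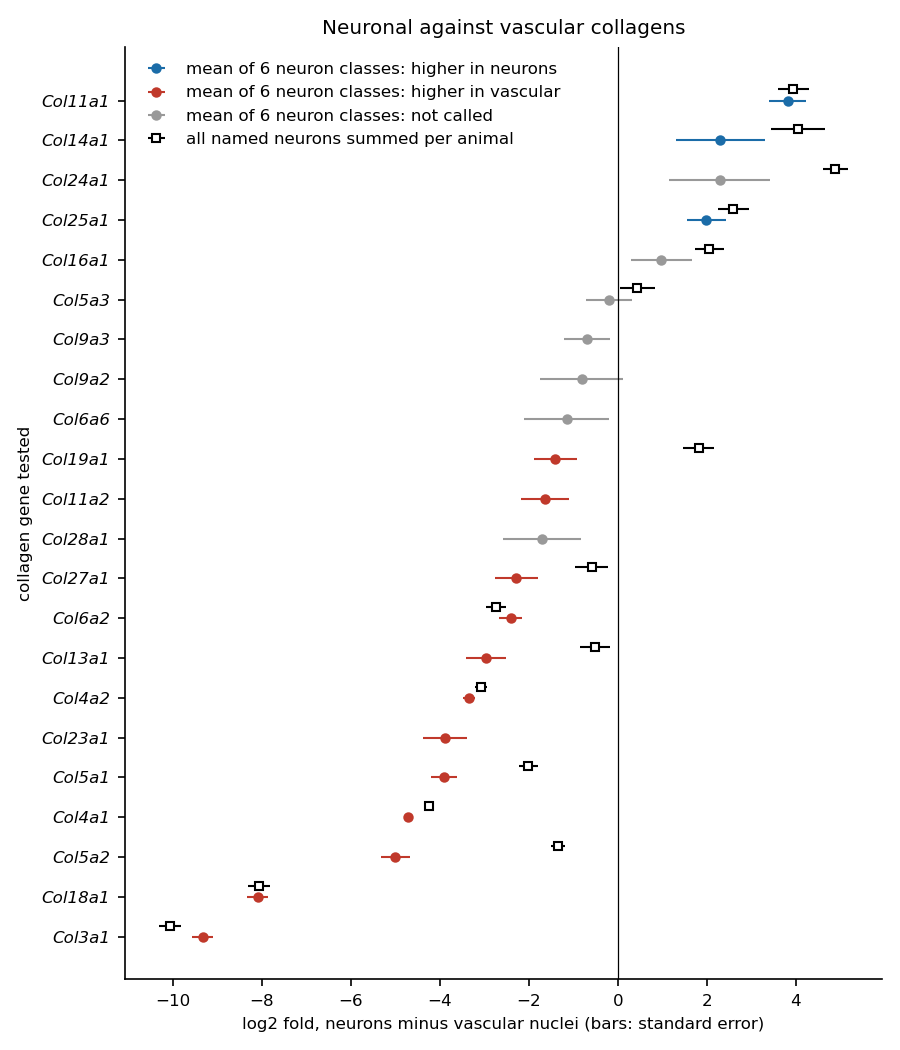
The x axis is the log2 difference of neurons minus vascular nuclei for each of 22 tested collagen genes (rows), with bars of 1 standard error. Filled points use the mean of 6 neuron classes and open squares the summed counts of all named neurons, which gave 16 genes. Col4a1 lies left of 0 by both, while Col19a1 changes side.

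Clusters of neurons separated the collagens further. In 23 neuron clusters with enough animals, 17 collagens were tested against the mean of the other clusters. Of 391 pairs of a gene and a cluster, 106 (27.1%) were called higher, where 6.6% of the pairs of all genes were, and 80 were called lower, where 6.5% were. By limma-voom 88 were higher (6.05% over all genes) and 108 lower (6.51%), so the balance of the 2 directions depends on the test. Each of the 17 genes was higher in at least 1 cluster, as were 38.7% of all 9310 genes tested. The filter on low counts can pass a low gene through the clusters where it is high. The count of 17 is therefore not read as a result about collagens. Clusters are given here by their leading genes. With clusters of resolution 1, 58 of 210 pairs (27.6%) were called higher, against 7.1% over all genes.

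Col24a1 was called higher in 9 clusters. The glutamate cluster led by Tfap2d and Adam33 was 1 of them, a call lost by limma-voom (0.16) and with at least 50 nuclei per animal (0.63). Col24a1 was also higher in all 4 D1 clusters and in 3 of the D2 clusters. Its highest D1 cluster, led by Hcrtr2 and Npffr2, had 28.2 to 999 CPM with a median of 423 (n = 40) and a log2 fold of 4.45 (SE 0.0743). The D2 cluster led by Npffr2 and Gpr52 had 62.6 to 1288 CPM with a median of 424 (n = 39) and a log2 fold of 4.63 (SE 0.0836). The D1 and D2 clusters led by Pdyn, Nts or Penk had medians of 137 to 166 CPM and ran from 3.93 to 519 over animals. The D1 cluster led by Dlk1 and Ush1c had 0 to 527 CPM with a median of 224 (n = 31). The D2 cluster led by Cpne7 went the other way and was called lower, by -3.58 (SE 0.959). So were all 3 eccentric clusters, and the Npy, Nos1 and Sst cluster of interneurons.

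Col14a1 was concentrated in the eccentric cluster led by Shisa8 and Gabrq, at 105 to 1185 CPM with a median of 580 (n = 39). Its log2 fold there was 7.79 (SE 0.0697). Among the other eccentric clusters, the one led by Otof and Tac2 had 21.8 ± 27.4 CPM, with 15.1 to 176 CPM of Col25a1 and a median of 76.5 (n = 30), and the one led by Foxp2 and Otof 8.76 ± 6.54. The Foxp2 and Otof cluster had the higher Col11a1, at 67.5 to 238 CPM with a median of 106, and Col25a1, at 98.2 ± 32.6. The Cpne7 cluster of D2 neurons shared this pattern, with 44.9 to 189 CPM of Col11a1, a median of 94.2, and 70.1 ± 25.8 of Col25a1. It also had the highest fold of Col6a2 among the tested neuron clusters, 3.61 on the log2 scale (SE 0.0987), at 67.6 ± 41.4 CPM.

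GABA interneurons split into clusters with different collagens. The cluster led by Npy, Nos1 and Sst had 214 to 905 CPM of Col25a1 with a median of 479 (n = 29), and the Pvalb cluster had 15.5 to 235 with a median of 77.3 (n = 38). The log2 folds were 4.52 (SE 0.0896) and 2.19 (SE 0.129). The cluster led by Vip and Kit had 11 of 17 tested collagens called higher, where 7.88% of all genes were. In it Col19a1 had 118 to 380 CPM with a median of 210 (n = 40), Col4a3 58.5 ± 46.8, Col23a1 46.2 ± 28.4 and Col5a1 114 ± 89.3. The Grik1 and Kcnc2 cluster had less Col19a1 than the Vip and Kit cluster, at 7.09 to 113 CPM with a median of 58.1. Col19a1 was still called higher there, by 3.62 (SE 0.108). Col9a3 was called higher in 4 of the GABA clusters and had the highest fold in cholinergic neurons, 4.16 (SE 0.192).

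Glutamate clusters carried type V chains in different proportions. Col5a2 had 77.8 to 625 CPM with a median of 221 in the cluster led by Pdzrn3 (n = 34) and 28.2 to 577 with a median of 168 in the cluster led by Slc26a4 and Nr4a2 (n = 39). The clusters led by Fsip2 and Nwd2 and by Cck and C1ql3 had 0 to 635 (median 91.4, n = 29) and 21.5 to 281 CPM (median 53.1, n = 37). Col13a1 was high in the first pair of clusters, at 67.1 ± 46.9 and 43.3 ± 24.7 CPM. The cluster led by Nxph3 and Cplx3 had instead Col5a1, at 14.9 to 591 CPM with a median of 174 (n = 30), and Col6a3 at 44.1 ± 39.3. The Slc26a4 and Nr4a2 cluster had 10 of 17 collagens called higher (6.83% of all genes), the cluster led by Fsip2 and Nwd2 10 (5.84%) and the Nxph3 cluster 9 (7.31%). In the Ccn3 and Cck cluster Col19a1 was called higher, at 7.78 to 99.3 CPM with a median of 37.5 (n = 39). In the Tfap2d and Adam33 cluster Col4a1 was called higher, at 25.3 to 184 CPM with a median of 72.6 (n = 21). At resolution 1 the cluster with these leading genes drew 48.9% of its nuclei from 1 library. Col4a1 and Col4a2 had highest folds of only 1.22 (SE 0.129) and 1.21 (SE 0.0666), and each was called higher in 2 clusters. Col4a1 was lower in 3, by up to -1.57 (SE 0.251) in the Npy, Nos1 and Sst cluster, and Col4a2 in the Pvalb cluster, by -1.02 (SE 0.225). That call of Col4a2 was lost with DESeq2 size factors (-0.98) and by limma-voom (-0.76).

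**Figure D3:**
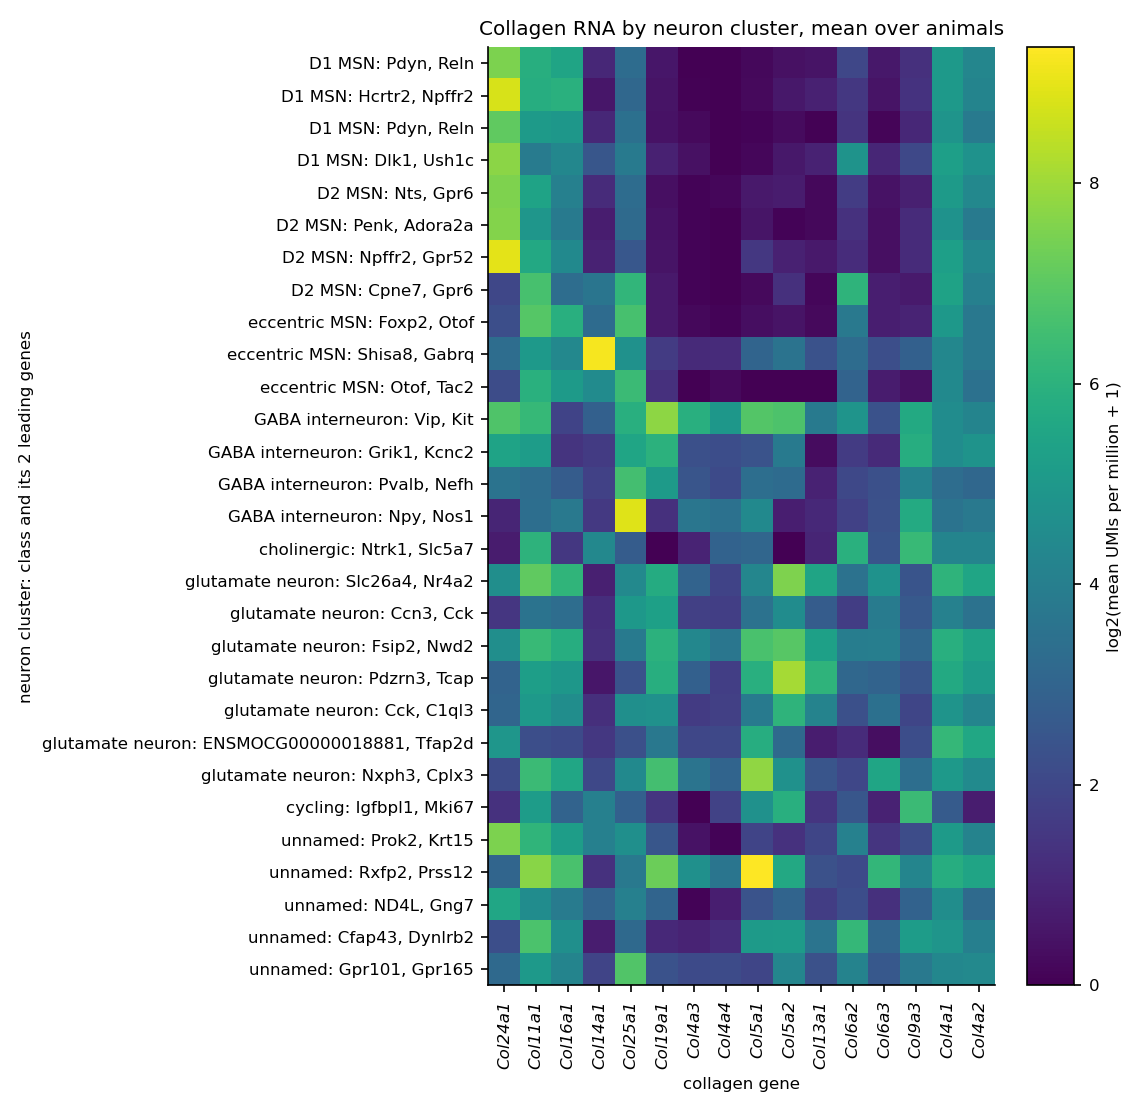
Colour gives log2 of the mean CPM plus 1 for 16 collagen genes (columns) in the 23 tested neuron clusters and, below them, 6 clusters that were not tested (rows, by class and leading genes). Col24a1 fills the D1 and D2 rows except the Cpne7 cluster, Col14a1 peaks in the Shisa8 and Gabrq cluster and Col25a1 in the Npy and Nos1 cluster.

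The vascular class was split again without the collagens into 7 sub-clusters, of 41 to 385 nuclei. Too few animals had enough nuclei for a test, so pooled levels with exact 95% Poisson intervals are given, which cover counting error only. Col4a1 had overlapping intervals in the larger endothelial-like sub-cluster (719 CPM, interval 642 to 803), the smaller one (684, 523 to 878) and the mural-like one (816, 680 to 971). It was lower in the second largest sub-cluster, of 362 nuclei, which was left unnamed and led by Slc7a10 and Ntsr2, genes of astrocytes (378, 320 to 444). It was 903 CPM (831 to 979) in an unnamed one led by Aspn and Abcc9. Col3a1 and Col5a2 differed between the named ones: the mural-like sub-cluster had 240 (169 to 330) and 324 (240 to 427) CPM, and the larger endothelial-like one 15.9 (6.4 to 32.7) and 11.3. A sub-cluster led by Myh11 and Acta2, left unnamed, had 453 CPM of Col3a1 (357 to 567).

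The fibroblast-like sub-cluster had 41 nuclei from 22 libraries and 2.27% of the UMIs of the vascular class. It held 61.4% of the class's Col1a1 UMIs, 80.0% of Col6a1, 71.4% of Col13a1, 63.4% of Col12a1 and 36.0% of Col3a1, but 3.1% of Col4a1. Its pooled levels were 2634 CPM for Col3a1 (2176 to 3159), 2021 for Col1a1 (1623 to 2487) and 1022 for Col12a1.

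The genes that fold, process, bind and degrade collagen were taken from 5 lists, which were also set up with earlier results known. Of 15 tested genes of folding and modification in the endoplasmic reticulum, 2 were higher in neurons than in vascular nuclei by class means (24.7% of all genes were) and 5 lower (22.3%). Serpinh1, the chaperone of collagen helices, had 385 ± 155 CPM in vascular nuclei, 136 ± 43.5 in astrocytes and 0.9 to 1.3 in D1, D2 and eccentric neurons. In oligodendrocyte precursors 9 of the 15 were higher (14.6% of all genes) and 2 lower (9.07%), and in astrocytes 8 were higher (18.1%) and 2 lower (13.5%). The precursors also had 5 of 7 processing genes and 6 of 7 proteases and inhibitors higher, against the same 14.6% of all genes, and none lower.

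Of 13 tested basement membrane partners, such as laminins and nidogens, 11 were lower in neurons (22.3% of all genes were), with a median log2 difference of -6.44 over the 13 against 0.144 over all genes. The count of lower genes was the same with summed neurons, where 16.3% of all genes were lower. Of 6 tested collagen receptors, 4 were lower in neurons (Itga1, Ddr2, Itgb1 and Adgrg1) and none higher, in both contrasts. Of all genes, 22.3% were lower and 24.7% higher by class means, and 16.3% and 32% with summed neurons. Itga1, an integrin chain that binds type IV collagen, had 690 ± 204 CPM in vascular nuclei. Ddr1, a receptor kinase for collagen, had 1238 ± 204 in mature oligodendrocytes. Adamts3, which trims the ends of fibrillar collagens, was called higher in neurons, at 734 CPM in eccentric and 709 in D1 neurons. None of the listed genes was called for pairing, sex or their interaction.

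Animals differed far more in some collagens than in others. The spread is given as the biological coefficient of variation from edgeR, beside the value of genes of like abundance, over 76 pairs of a collagen and a class. The median collagen pair varied 1.70 times as much as genes of its abundance. Col28a1 in oligodendrocyte precursors had 93.6% against 15.5% and ranked 1st of 4001 genes. Its values left a wide gap: 21 animals lay between 0 and 114 CPM and 18 between 281 and 662. Animals above the gap came from every group: 5 of 11 female mate, 4 of 8 female peer, 4 of 10 male mate and 5 of 10 male peer.

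Col24a1 in D1 neurons had 69.0% against 14.5% (rank 11 of 10736 genes) and in D2 neurons 66.1% against 14.7% (rank 10 of 10508). Its highest animal was 32.2 times its lowest in D1 and 30.8 times in D2 neurons. By group the D1 medians were 155 CPM in female mate, 220 in female peer, 271 in male mate and 268 in male peer animals, and the ranges overlapped. D1 clusters also differed in Col24a1, with medians of 137 to 423 CPM, and the part of their mix in this spread was not tested. Col5a2 in microglia had 192% against 26.7% (rank 3 of 2421): 23 of 38 animals were at 0, and the highest had 457 CPM. A count of 3 in those animals equals 19.5 to 181 CPM. Col16a1 in D1 neurons (59.1% against 17.1%), and Col6a6 and Col23a1 in astrocytes (68.5% and 72.5%), also varied widely.

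Other collagens were closer to genes of their abundance. Col16a1 had 15.9% in oligodendrocyte precursors against 15.7%, and Col19a1 18.5% in glutamate neurons against 19.5%. Col25a1 in GABA interneurons had 18.1% against 15.8% and ranked 2013 of 9690 genes. Col16a1 was thus close to genes of its abundance in 1 class and far above them in another.

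**Figure D4:**
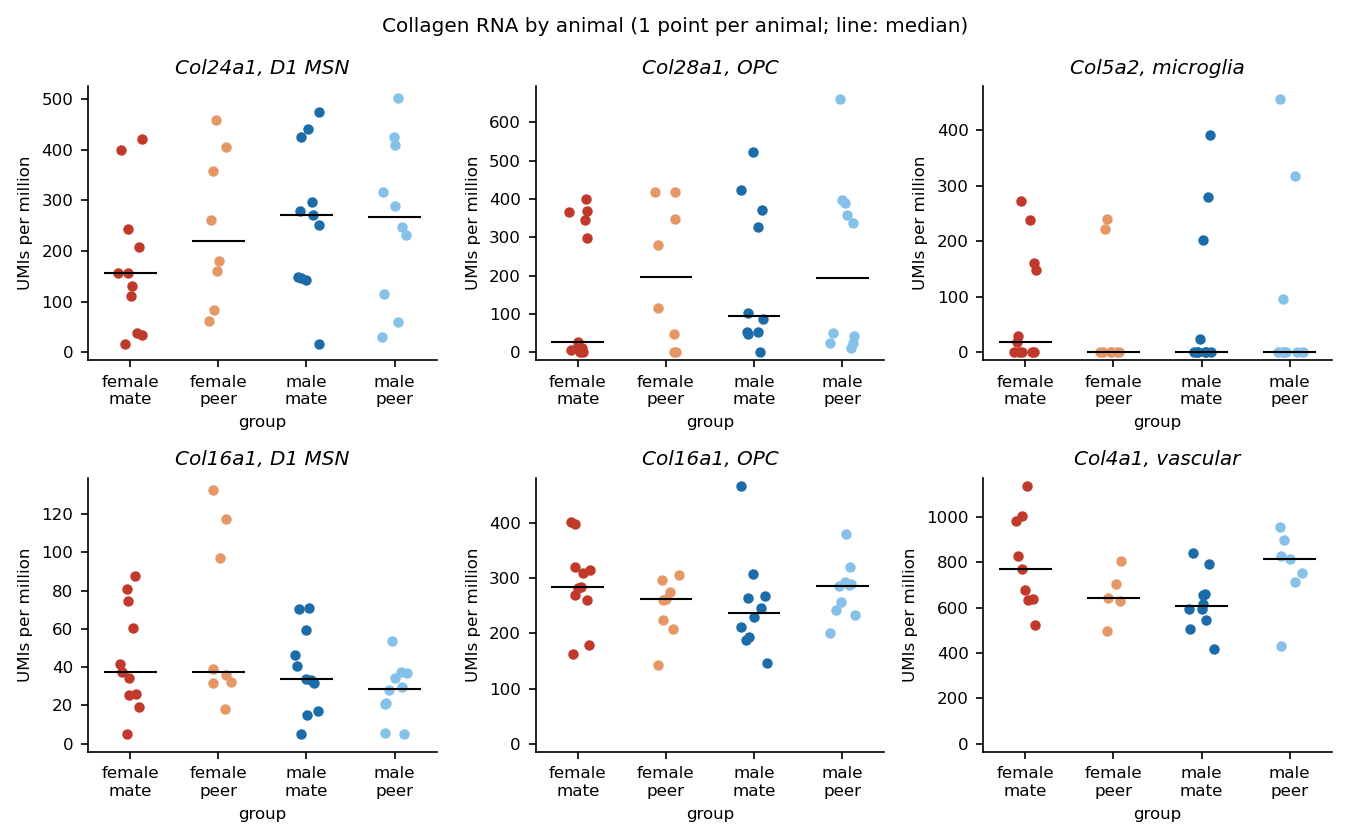
Each point is 1 animal, its level in CPM on a linear y axis, for 6 pairs of a collagen gene and a class; animals are split by group on the x axis and lines mark group medians. Col24a1 in D1 neurons runs from 15.6 to 501, Col28a1 falls into a low and a high set of animals in every group, and Col16a1 in oligodendrocyte precursors stays between 142 and 466.

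Whether an animal high in 1 class was high in another was examined after the data had been seen. Of 199 correlations of a collagen between 2 classes over animals, 42 had a permutation p under 0.05 after Benjamini-Hochberg adjustment, all positive, and 23 did without the 2 animals farthest from the median. The share over all genes was not computed, so the count says nothing particular to collagens. Col24a1 in D1 and D2 neurons had a Pearson r of 0.96 and a Spearman rho of 0.97 over 40 animals. The two-sided permutation p was 1e-05 for both, the smallest that 100000 permutations give, and 0.000142 for r and 0.000221 for rho after adjustment. The r was 0.96 without the 2 farthest animals and 0.93 to 0.99 within the 4 groups. Between D1 neurons and GABA interneurons it was 0.34 with a rho of 0.35 (permutation p = 0.0309 and 0.0261, adjusted 0.121 and 0.118).

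Col27a1 in D1 and D2 neurons had an r of 0.91 and a rho of 0.81, with r from 0.62 to 0.97 within groups. Col16a1 had an r of 0.81 and a rho of 0.69, with r from 0.24 to 0.97 within groups. For both genes the adjusted permutation p was 0.000142 for r and 0.000221 for rho. The 2 classes of a library share its nuclei isolation and its free RNA: D1 markers summed to 338 CPM in D2 nuclei against 3674 in D1 nuclei. Clusters within a class also differed, with Col24a1 medians of 137 to 423 CPM over D1 clusters, and their mix can vary between animals. The part of isolation, free RNA and cluster mix in these correlations was not tested. For the vessel genes, Col4a1 and Col4a2 each had 7 correlated class pairs.

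**Figure D5:**
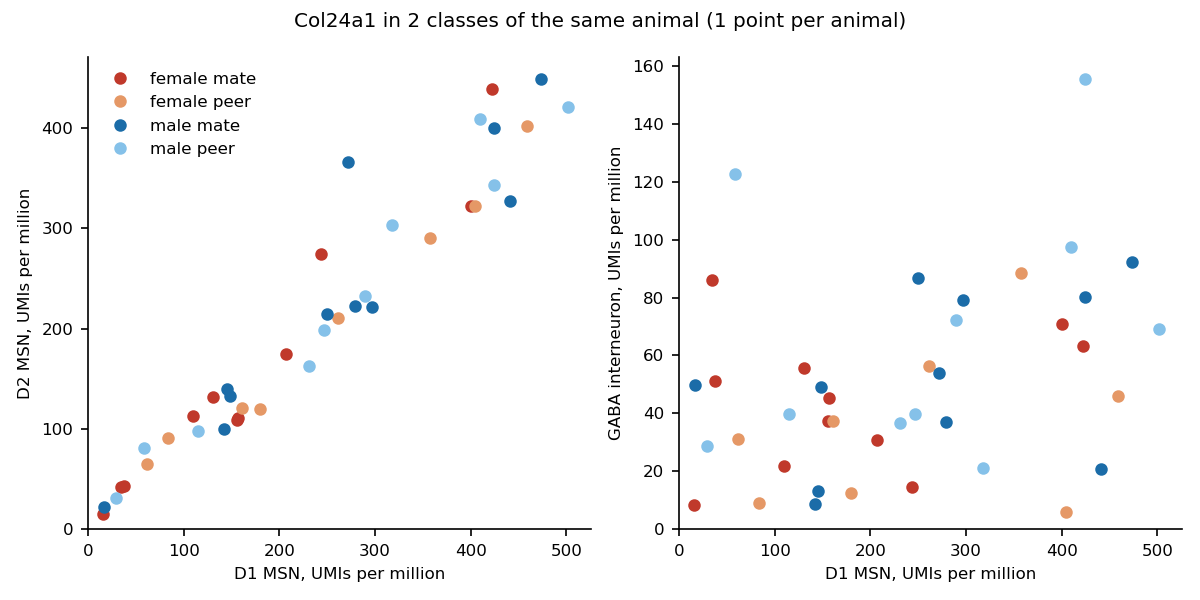
Each point is 1 animal, coloured by group, with Col24a1 in D1 neurons on the x axis and in D2 neurons (left) or GABA interneurons (right) on the y axis, all in CPM on linear axes. The D1 and D2 values follow a line through all 4 groups (r = 0.96), and GABA interneurons scatter more widely (r = 0.34).

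The level of a collagen over all nuclei of an animal can also move with the makeup of its tissue. For each of the 34 genes the level over all nuclei was correlated with the share of its highest class, over 40 animals, and 5 had an adjusted permutation p under 0.05. Col13a1 followed the glutamate share, with r = 0.61 (permutation p = 0.00011, adjusted 0.00317) and rho = 0.61 (adjusted 0.00119), and r = 0.58 without the 2 animals farthest from the median share. Col3a1 followed the vascular share, with r = 0.52 (permutation p = 0.00111, adjusted 0.00755), rho = 0.62 (adjusted 0.00034) and r = 0.56 without 2 animals. Col5a3 followed the astrocyte share, with r = 0.54 (permutation p = 0.00028, adjusted 0.00317), rho = 0.51 (adjusted 0.0103) and r = 0.47 without 2 animals. Col5a2 with the glutamate share had r = 0.64 and rho = 0.48, but 0.31 without those 2 animals (adjusted permutation p = 0.184) and 0.35 without male mate animal 2 alone (adjusted permutation p = 0.144), so it rests on them. Col14a1 with the eccentric share fell from 0.55 to 0.41 (adjusted permutation p = 0.0816). In such totals, fewer cells of a type and less RNA per cell cannot be told apart.

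In the fits made here, no collagen was called for mate against peer or for female against male. Over all nuclei 36 collagens were tested with edgeR's quasi-likelihood test, and 0 were called at an adjusted p under 0.05 for pairing (0% of all genes were), 0 for sex (0.0219%) and 0 for their interaction (0%). Unadjusted p-values under 0.05 numbered 2, 4 and 2 (5.56%, 11.1% and 5.56%), against 6.57%, 8.25% and 2.03% of all genes. Within classes, 76 pairs of 26 collagens and a class gave 0 calls for pairing (0%), sex (0.0225%) and interaction (0%), with 6, 7 and 1 unadjusted p-values under 0.05 (7.89%, 9.21% and 1.32%), against 5.14%, 5.37% and 2.68% over all genes. DESeq2 also called 0 in each of these 6 comparisons.

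Over all nuclei the lowest p for pairing was that of Col4a2. Mate animals had 9.50 to 42.3 CPM with a median of 21.2 and peer animals 8.39 to 30.5 with a median of 17.3. The ranges overlapped, and the log2 difference was 0.35 (SE 0.131, unadjusted p = 0.01, adjusted p = 0.74, edgeR's quasi-likelihood test). Male mate 2 had the highest value, and the difference was 0.30 without it. In glutamate neurons Col4a2 had 9.95 to 57.5 CPM with a median of 33.6 in mate animals (n = 22) and 6.65 to 38.8 with a median of 24.8 in peer animals (n = 17). That difference was 0.51 (SE 0.158, adjusted p = 0.94, edgeR's quasi-likelihood test). Col5a1 in glutamate neurons had 11.5 to 159 CPM with a median of 31.6 in mate animals and 9.49 to 50.9 with a median of 21.8 in peer animals. The difference was 0.69 (SE 0.233) and fell to 0.45 without male mate 2, the animal at 159 CPM. Col4a2 in D1 neurons had medians of 16.9 (7.91 to 37.5) and 15.5 (9.70 to 34.5), a difference of 0.36 (SE 0.143). Over all nuclei, Col1a2 followed with medians of 1.25 (0.285 to 2.63) and 1.73 (0.745 to 2.90), a difference of -0.45 (SE 0.204). Col4a1 had medians of 37.1 (24.6 to 59.0) and 32.1 (21.7 to 46.5), a difference of 0.17. All of these overlapped between mate and peer animals.

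For sex, Col5a3 had the lowest p over all nuclei and within classes. Over all nuclei females had 8.14 to 40.5 CPM with a median of 28.1 and males 11.8 to 34.4 with a median of 21.1, a difference of 0.31 (SE 0.133, adjusted p = 0.584, edgeR's quasi-likelihood test). In astrocytes females had 135 to 511 CPM with a median of 302 (n = 19) and males 127 to 408 with a median of 235 (n = 20). The difference there was 0.38 (SE 0.130, adjusted p = 0.892, edgeR's quasi-likelihood test), and most animals of both sexes lay in the shared range. Over all nuclei Col11a1 was next, with medians of 47.5 CPM in females (29.8 to 87.6) and 62.7 in males (34.4 to 100.3), a difference of -0.27 as females minus males. Col5a2 had 24.1 (10.8 to 81.5) and 33.1 (13.9 to 136), a difference of -0.52, or -0.37 without male mate 2. Within classes, Col5a3 in D2 neurons had medians of 8.55 (1.92 to 20.6) in females and 5.06 (0.789 to 13.8) in males, a difference of 0.63. Col16a1 in D1 neurons had 37.6 (5.26 to 133) and 33.2 (4.85 to 70.7), a difference of 0.66. The ranges of both sexes overlapped for each of these genes.

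The interaction asks whether mate and peer differ by another amount in females than in males. Its lowest p over all nuclei was that of Col23a1 (-0.74): females had medians of 3.49 CPM with a mate and 5.08 with a peer, and males 3.64 and 3.47. Col6a4 (-1.02) followed, with medians of 1.07 and 1.34 in females and 1.56 and 1.05 in males. Col16a1 (-0.48) had 35.5 and 35.1 in females and 40.7 and 35.0 in males. Within classes the lowest were Col16a1 in D2 neurons (-1.06), mature oligodendrocytes (-0.93) and D1 neurons (-0.99). In D2 neurons its medians were 15.3 CPM in female mate, 16.7 in female peer, 13.6 in male mate and 10.7 in male peer animals. In mature oligodendrocytes they were 69.8, 74.9, 70.4 and 45.4 in the same order, and in D1 neurons 37.6, 37.5, 33.8 and 28.8. The ranges of the 4 groups overlapped for each of these genes.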

How the data were processed

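The authors deposited, for each library, whole UMI counts of genes in barcodes without any scaling, made with Cell Ranger 3.1.0 per the submitters' processing notes; the genome build of the reads is not given in the sources used here. The counts sum to 2918796 to 13163871 per animal after filtering. Barcodes with under 500 UMIs (6375, all from male mate 2) or over 5% mitochondrial UMIs (2148) were left out of 194518, and 7608 (4.09%) were called doublets at an assumed 0.8% per 1000 barcodes. The 178387 nuclei were clustered by the Leiden method in Python 3.11.15 with igraph 0.11.9 (2000 variable genes without collagens, 30 principal components, 15 neighbours, resolution 1; 2 for neuron clusters; 0.5 for vascular nuclei). Clusters were named from 20 marker lists, needing 3 markers, and 22215 nuclei stayed unnamed. The somatostatin, parvalbumin and other GABA lists were joined into 1 class, as were the 3 vascular lists.

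Counts were summed per animal and class (at least 20 nuclei per animal, 10 animals per class, 6 per group) and tested with edgeR 4.0.16 in R 4.3.3 (TMM, filterByExpr, quasi-likelihood, Benjamini-Hochberg over all genes). Alternatives used DESeq2 1.42.0 and limma 3.58.1. The code was tested on simulated data. Members, lists and tests were chosen with earlier results of these data known. Collagens with at least 10 CPM in a class are described by class. Values by animal are given for the highest called gene of a class or neuron cluster and for the 3 lowest p of each group comparison, for the interaction as group medians. Other genes were named after their values had been seen. The call of 1 listed gene is not reported here; the printed counts of genes tested include it.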

Additional observations from a re-analysis of the deposited data

Results flagged for a closer look

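In 105 sets of a collagen gene, a class and a group of 4 to 10 animals, 14 values, from 10 animals, lay far from the rest of their group by Dixon's criterion at the 95% level. Chance flags about 1 in 20 groups, and no explanation was tested. In vascular nuclei 7 values stood apart, most on few UMIs. These were Col12a1 in female mate 2 at 297 CPM (14 UMIs), Col5a1 in female mate 2 at 127 (6 UMIs) and Col6a1 in female mate 10 at 151 (5 UMIs). They were also Col4a6 in male peer 5 at 163 (4 UMIs), Col1a1 in male mate 11 at 112 (4 UMIs), Col6a1 in male mate 11 at 56.1 (2 UMIs) and Col8a1 in male mate 2 at 59.7 (1 UMI).

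In astrocytes Col27a1 stood apart in male mate 1 at 140 CPM (54 UMIs) and in female peer 1 at 125 (15 UMIs). Col23a1 did so in male mate 4 at 94.6 (32 UMIs) and in male peer 6 at 83.4 (24 UMIs). In oligodendrocyte precursors Col16a1 was 466 CPM in male mate 1, where the next animal had 308, and Col9a1 was 35.4 in male peer 9 (3 UMIs). In glutamate neurons Col5a2 was 272 CPM in male peer 9 on 445 UMIs, and the next animal of that group had 184.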

How the results depend on the processing

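With no filter on low counts all 40 collagens were tested, and those called higher numbered 8 in D1, 7 in D2, 7 in eccentric, 19 in GABA and 20 in glutamate neurons, 14 in astrocytes and 21 in vascular nuclei (11.1% to 16.3% of all genes), and 5 were higher in D2 than D1 (0.857%). Vascular nuclei then exceeded neurons in 21 (17.9%), and 189 of 920 pairs with neuron clusters were called (6.39%); more genes were tested. Clusters of resolution 1 gave 58 of 210 pairs (7.1%). limma-voom called 1 in D1, 2 in D2, 9 in cholinergic neurons and 9 in microglia (9.19%, 9.47%, 12.7% and 18.1%); the cause was not tested. Doublets kept left 1 higher in D2 (0.811%). Summed neurons exceeded vascular nuclei in 6 and were below in 7. By the same sum Col19a1 turned to 1.82, and by limma-voom Col14a1 turned to -0.98, for neurons minus vascular nuclei. Without the 2 farthest animals, 23 class pairs stayed correlated, and the share correlations fell to 0.405 for Col14a1 and 0.314 for Col5a2 (0.355 without male mate 2). Of 146 calls between classes, 146 were kept with DESeq2 size factors and 146 without male mate 2, 145 with collagens among the variable genes, 145 with no filter, 137 at resolution 2, 128 with doublets kept and 120 by limma-voom. Of 186 calls between neuron clusters, 181, 185, 182 and 144 were kept with DESeq2 size factors, without male mate 2, with no filter and by limma-voom. With at least 50 nuclei per animal no vascular class remained. No collagen was called for pairing, sex or interaction under any of the 6 alternatives. No paired analysis was run. The labels number the animals from 1 to 40, not the replicates of a group, and do not say which animals were partners. Each odd number and the next are a female and a male with a mate or 2 peers of 1 sex; whether they lived together is not stated, and no fit used it.

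Depth limits the vascular, microglia and cholinergic classes most: a gene needs about 64.2, 40.8 or 40.5 CPM in the median animal to give 3 UMIs, so low collagens there cannot be called absent.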

Other observations

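Nuclei left unnamed by the markers also carried collagens, and they enter none of the tests above. A cluster of 5467 nuclei led by Rxfp2 had 656 ± 268 CPM of Col5a1 over 38 animals, 207 ± 150 of Col11a1, 153 ± 52.6 of Col19a1, 102 ± 52.6 of Col16a1 and 72.4 ± 59.2 of Col6a3. Its Col5a1 mean exceeded that of every named neuron cluster, the next being 224 ± 125 in the cluster led by Nxph3; this difference was not tested. A cluster led by Cfap43, a gene of motile cilia, had 104 ± 68.1 CPM of Col11a1, 73.7 ± 67.1 of Col6a2 and 37.7 ± 37.7 of Col23a1 over 38 animals. A cluster led by Gpr101 had 112 ± 38.0 CPM of Col25a1, and one led by Prok2 had 180 ± 129 CPM of Col24a1. A cluster of cycling nuclei had 81.5 ± 49.9 CPM of Col9a3 over 38 animals.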
